A study of Mus musculus with 6 samples.

Results

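Extracellular nucleotides are sensed by purinergic receptors and removed by ectonucleotidases, and 10 mouse genes of this system were examined in dendritic cells grown from bone marrow. The genes were taken by symbol: the P2Y receptors P2ry2, P2ry6, P2ry12, P2ry13 and P2ry14, the P2X channels P2rx4 and P2rx7, the ectonucleotidases Entpd1 and Nt5e, and the adenosine receptor Adora2a. Of these, 9 had a probe set annotated with 1 gene symbol, among 19938 such genes in all, and no member had more than 1, so the rule of taking the probe set with the highest mean made no choice. Adora2a was not analysed here. The members were chosen by their place in this system and by the difference of P2ry13: the list was drawn up with earlier results of the same comparison known, in which P2ry13 was among the genes called, so the differences and adjusted p-values below describe the members and are not independent evidence about them.

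ATP and UTP that leave stressed or dying cells act as danger signals. P2X receptors are ion channels opened by ATP, and P2Y receptors are G protein-coupled receptors for ATP, UTP, ADP, UDP or UDP-sugars. CD39, encoded by Entpd1, cuts ATP and ADP to AMP, and CD73, encoded by Nt5e, cuts AMP to adenosine, which dampens many immune cells through receptors such as the one encoded by Adora2a. In dendritic cells this system is known for its effects on migration, cytokine release and T cell priming.

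The comparison concerns dendritic cells that arise from marrow after the skin of the marrow donor was exposed to ultraviolet (UV) radiation. In the UV-donor group, female C57BL/6J recipients had received 2000000 marrow cells of a UV-irradiated B6.SJL-Ptprca donor, a congenic strain with the CD45.1 alloantigen; in the naive-donor group the donor was an untreated mouse of that strain. UV doses reached 8 kJ/m2 on shaved back skin, and mice were 6 to 10 weeks old when irradiated. Recipient marrow of both groups grew for 5 days in IL-4 and GM-CSF (10 ng/ml of each), CD11c+ cells were enriched to over 95%, and 3 RNA preparations per group were hybridised to 1 array each. Whether each preparation had its own recipient mouse is not stated in the labels, and p-values here cover only preparation-to-preparation spread, which may be technical. How many cultured cells descended from the injected marrow is not given in the sources used here.

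The 6 arrays were closely correlated, with Pearson correlations over all probe sets from 0.995 to 0.997. Such correlations do not show shifts of level or scale. Array medians were 7.16 to 7.18 in the UV-donor group and 7.19 to 7.23 in the naive-donor group. Interquartile ranges were 3.71 to 3.75 in the UV-donor group and 3.61 to 3.68 in the naive-donor group. Dendritic cell markers were checked first: Itgax, which encodes CD11c, had log2 signals of 13.71 to 13.75 on UV-donor arrays and 13.75 to 13.79 on naive-donor arrays. Of 11 dendritic cell markers, 10 passed the filter on dim genes, and Flt3, a receptor of dendritic cell progenitors, did not. All 9 measured members passed this filter, which removed genes with a mean log2 signal below 6.58. P2ry12 lay just above it, with a mean of 6.62. Its mean was 6.71 in the UV-donor group and 6.54 in the naive-donor group. P2ry12 thus passed the filter only through its higher values in the UV-donor group. A probe set's signal is compared here only with the same probe set on other arrays, because signals of different probe sets do not rank genes by abundance.

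P2ry13, P2ry12 and P2ry14 form a cluster on mouse chromosome 3, per the RefSeq gene table of GRCm38.p6. The upstream sequences of these 3 genes and of Nt5e are shown because P2ry13 and Nt5e had the largest differences among the members, while P2ry12 and P2ry14 lie in the same cluster as P2ry13. RefSeq promoters of GRCm38.p6 were matched by symbol for 8 of the 10 members. Each run is the 250 bases before the annotated start, 5′ to 3′ on the gene's strand, and capitals mark GAGGAA, a core of sites bound by PU.1, a transcription factor of myeloid cells.
P2ry13, chr3:59210883-59211132, minus strand: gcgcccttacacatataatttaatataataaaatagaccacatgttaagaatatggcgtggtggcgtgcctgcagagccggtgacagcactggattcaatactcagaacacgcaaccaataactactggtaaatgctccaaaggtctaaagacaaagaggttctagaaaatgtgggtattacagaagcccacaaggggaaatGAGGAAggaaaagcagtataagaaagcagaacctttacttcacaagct
P2ry12, chr3:59262986-59263235, minus strand: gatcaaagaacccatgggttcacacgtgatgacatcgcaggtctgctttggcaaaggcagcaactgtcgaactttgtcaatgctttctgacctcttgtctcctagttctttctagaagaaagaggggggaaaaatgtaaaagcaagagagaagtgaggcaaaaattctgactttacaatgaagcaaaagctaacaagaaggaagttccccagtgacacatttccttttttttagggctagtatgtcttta
P2ry14, first of 4 starts, chr3:59153493-59153742, minus strand: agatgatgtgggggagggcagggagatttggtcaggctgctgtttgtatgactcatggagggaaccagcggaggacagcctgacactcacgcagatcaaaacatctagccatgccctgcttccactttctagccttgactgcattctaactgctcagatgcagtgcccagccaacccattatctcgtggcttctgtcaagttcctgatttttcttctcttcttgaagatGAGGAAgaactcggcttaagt
Nt5e, chr9:88327359-88327608, plus strand: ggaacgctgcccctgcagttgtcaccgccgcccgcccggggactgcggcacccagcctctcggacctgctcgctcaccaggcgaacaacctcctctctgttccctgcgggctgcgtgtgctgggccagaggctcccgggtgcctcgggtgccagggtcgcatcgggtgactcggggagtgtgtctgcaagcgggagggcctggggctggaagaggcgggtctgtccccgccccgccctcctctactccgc

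The search covered both strands for GAGGAA, for TGACTCA, the AP-1 site, and for sites of the STAT and IRF transcription factor families. The PU.1 core stood once before the start of P2ry13, from 48 to 43 bases upstream, and once before the first start of P2ry14, from 21 to 16 bases upstream. It also stood once before each of the other 3 starts of P2ry14, on the opposite strand, and at 2 places before the second start of Entpd1. GAGGAA was not found before the starts of the other matched members, P2ry12 and Nt5e among them. Other forms of PU.1 sites were not searched for, so these windows may hold them. Of 32851 RefSeq promoter windows of this length, 23.3% held GAGGAA on either strand. No STAT or IRF site was found before any start of the matched members, where 5.85% and 2.98% of all windows held such a site. TGACTCA was found before the first start of P2ry14 and before 1 of the 2 starts of P2rx7, and in 4.46% of all windows. These matches describe the letters only and were not tied to any measurement of binding. The Nt5e window was rich in G and C (72.0%), against 41.6% for P2ry13, 41.6% for P2ry12 and a median of 52.4% over all windows.

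Across the members, P2ry13 and Nt5e had higher signals in the UV-donor group than in the naive-donor group, by 1.62-fold and 1.38-fold. P2ry13 alone passed the test over all genes (limma, adjusted p under 0.05). The other receptors and Entpd1 differed by 1.13-fold at most. So 1 of 9 members was called, against 0.172% of all 13956 tested genes (24 genes, all higher). Because the list was drawn up with that call known, nothing is read from this share.

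P2ry13 encodes a Gi-coupled receptor for ADP. Its log2 signal (probe set 10498367) was 8.25, 7.97 and 8.12 on the UV-donor arrays, against 7.45, 7.46 and 7.34 on the naive-donor arrays. Every UV-donor array lay above every naive-donor array, and the gap between the groups (0.51) exceeded the spread inside either group. The means were 8.12 ± 0.14 in the UV-donor group and 7.42 ± 0.07 in the naive-donor group (SD, n = 3 each), a log2 difference of 0.70 (SE 0.075, 95% interval 0.52 to 0.87, limma adjusted p = 0.0199). In bulk preparations, more cells that carry a transcript and more transcript per cell cannot be told apart. The call was lost without UV-donor replicate 2 (limma adjusted p = 0.0581) or replicate 3 (0.0909) and without naive-donor replicate 1 (0.119) or replicate 3 (0.123), while the difference stayed between 0.63 and 0.77. It was also lost when all 35556 probe sets were tested together (limma adjusted p = 0.271).

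**Figure D1:**
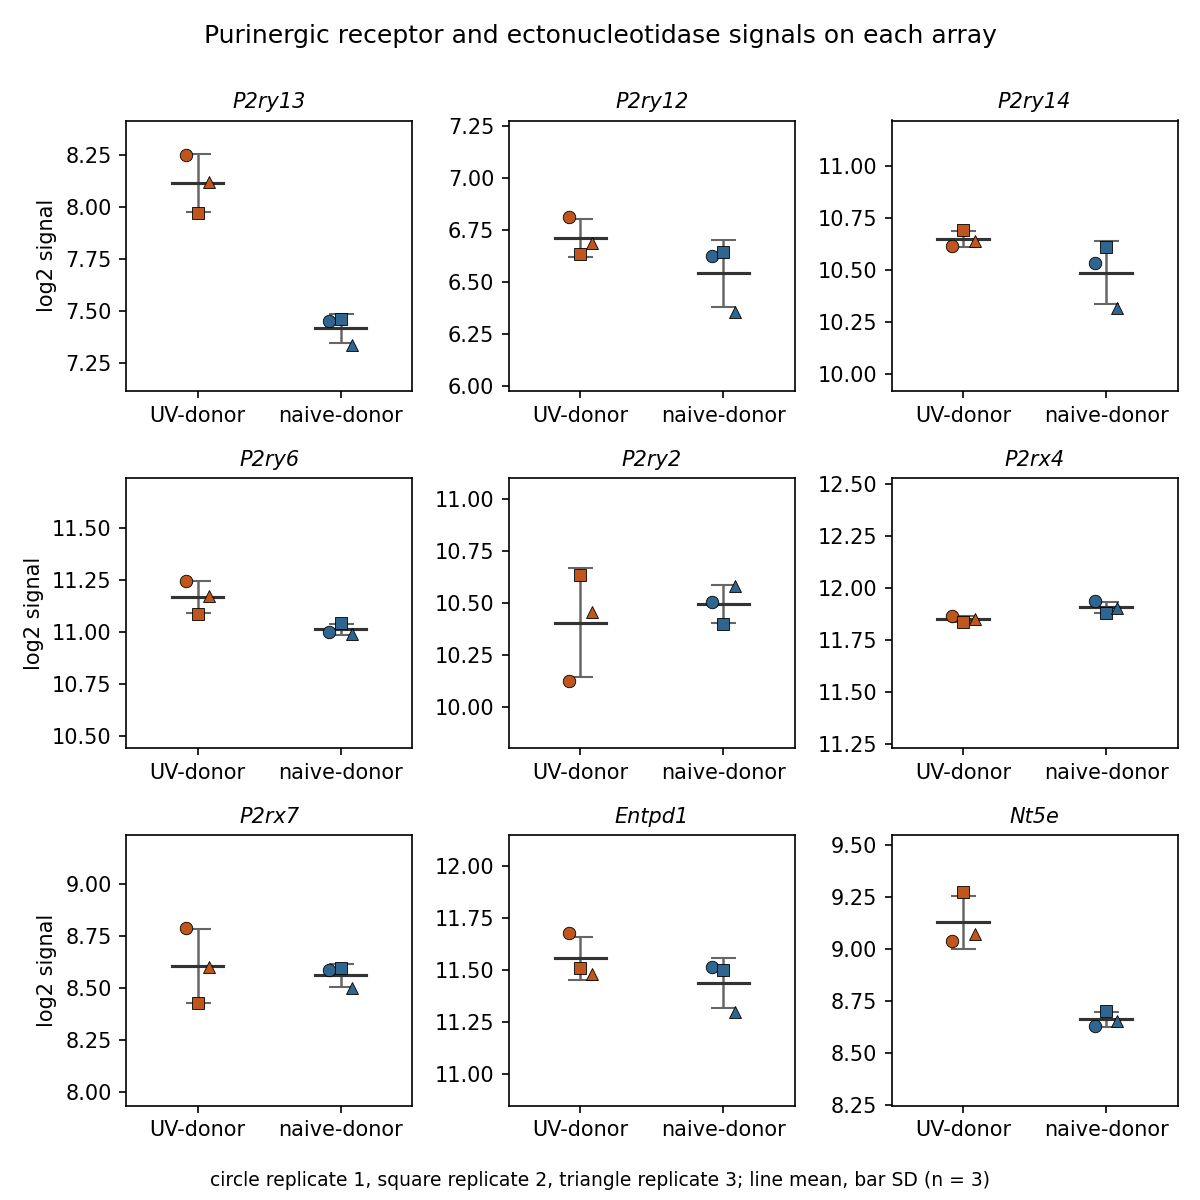
Log2 signal (vertical axis, every panel spanning the same number of log2 units) of the 9 measured members on each array, UV-donor left and naive-donor right. Symbols are single arrays, horizontal lines are group means and bars are SD (n = 3); P2ry13 and Nt5e show the widest separation of the groups.

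P2ry12 encodes the Gi-coupled ADP receptor of platelets and microglia. Its log2 signals (probe set 10498371) were 6.81, 6.63 and 6.68 in the UV-donor group and 6.62, 6.64 and 6.35 in the naive-donor group. The groups overlapped, and naive-donor replicate 3 was the lowest array. The difference was 0.17 (95% interval -0.026 to 0.37, limma adjusted p = 0.387), and 0.077 without naive-donor replicate 3. P2ry14 encodes a Gi-coupled receptor for UDP-glucose and related sugars. Its log2 signals (probe set 10498350) were 10.62, 10.69 and 10.64 in the UV-donor group and 10.54, 10.61 and 10.32 in the naive-donor group. The groups were parted by only 0.0078, and here too naive-donor replicate 3 was lowest. The difference was 0.16 (95% interval -0.011 to 0.34, limma adjusted p = 0.358), and 0.078 without naive-donor replicate 3.

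The nearest other genes of the cluster with a tested probe set were Gpr171, a G protein-coupled receptor gene beside P2ry14, and Med12l, a Mediator subunit gene whose annotated span holds the cluster. Gpr171 differed by 0.18 (limma adjusted p = 0.205) and Med12l by -0.0037 (limma adjusted p = 0.988). P2ry13 was the 1 called gene among the 5 tested genes of this neighbourhood. The neighbourhood was examined with the call of P2ry13 known, so nothing is read from this count. Whether the difference of P2ry13 exceeded those of its neighbours was not tested.

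P2ry6 encodes a Gq-coupled receptor for UDP, and its log2 signals (probe set 10565958) were 11.24, 11.09 and 11.17 in the UV-donor group, against 11.00, 11.04 and 10.99 in the naive-donor group. The UV-donor arrays lay above the naive-donor arrays by 0.043, and the difference of 0.16 (SE 0.054, 95% interval 0.033 to 0.28) had a limma adjusted p of 0.241. P2ry2 encodes the receptor for ATP and UTP. Its log2 signals (probe set 10565962) were 10.12, 10.64 and 10.46 in the UV-donor group and 10.50, 10.40 and 10.58 in the naive-donor group. The UV-donor arrays thus held both the lowest and the highest value, and the difference of -0.090 (95% interval -0.36 to 0.18, limma adjusted p = 0.76) became 0.052 without UV-donor replicate 1.

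The ATP-gated channels showed small differences. P2rx4, a channel found at the surface and in lysosomes of myeloid cells, had log2 signals (probe set 10525439) of 11.87, 11.84 and 11.85 in the UV-donor group and 11.94, 11.88 and 11.90 in the naive-donor group. This was the tightest member, ranging over 0.099 across the arrays, and its groups were parted by 0.014 with the UV-donor group below. The difference was -0.055 (95% interval -0.16 to 0.046, limma adjusted p = 0.585). P2rx7, the channel that opens at high ATP and is a classical trigger of the NLRP3 inflammasome, had log2 signals (probe set 10525419) of 8.79, 8.43 and 8.60 in the UV-donor group and 8.59, 8.59 and 8.50 in the naive-donor group. The UV-donor arrays lay on both sides of the naive-donor arrays, and the difference of 0.045 (95% interval -0.15 to 0.24, limma adjusted p = 0.842) became -0.045 without UV-donor replicate 1.

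The enzymes of the ATP-to-adenosine route had log2 differences of 0.47 (Nt5e) and 0.12 (Entpd1). Nt5e (probe set 10587639) had log2 signals of 9.04, 9.27 and 9.07 in the UV-donor group, against 8.63, 8.70 and 8.66 in the naive-donor group. All UV-donor arrays were higher, by at least 0.34, and the means were 9.13 ± 0.13 in the UV-donor group and 8.66 ± 0.04 in the naive-donor group (SD, n = 3 each). The difference of 0.47 (SE 0.068, 95% interval 0.31 to 0.62) had a limma adjusted p of 0.0551 and so missed the threshold. It passed under 4 of 16 alternative fits, with a stricter dim filter, weighted arrays, centred array medians, or a robust prior with an intensity trend. Entpd1, the enzyme acting before it, had log2 signals (probe set 10463070) of 11.67, 11.51 and 11.48 in the UV-donor group and 11.52, 11.50 and 11.30 in the naive-donor group. These groups overlapped, and the difference was 0.12 (95% interval -0.060 to 0.30, limma adjusted p = 0.506). It was 0.048 without naive-donor replicate 3 and 0.058 without UV-donor replicate 1. Whether Nt5e and Entpd1 differed from each other in their shift was not tested.

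**Figure D2:**
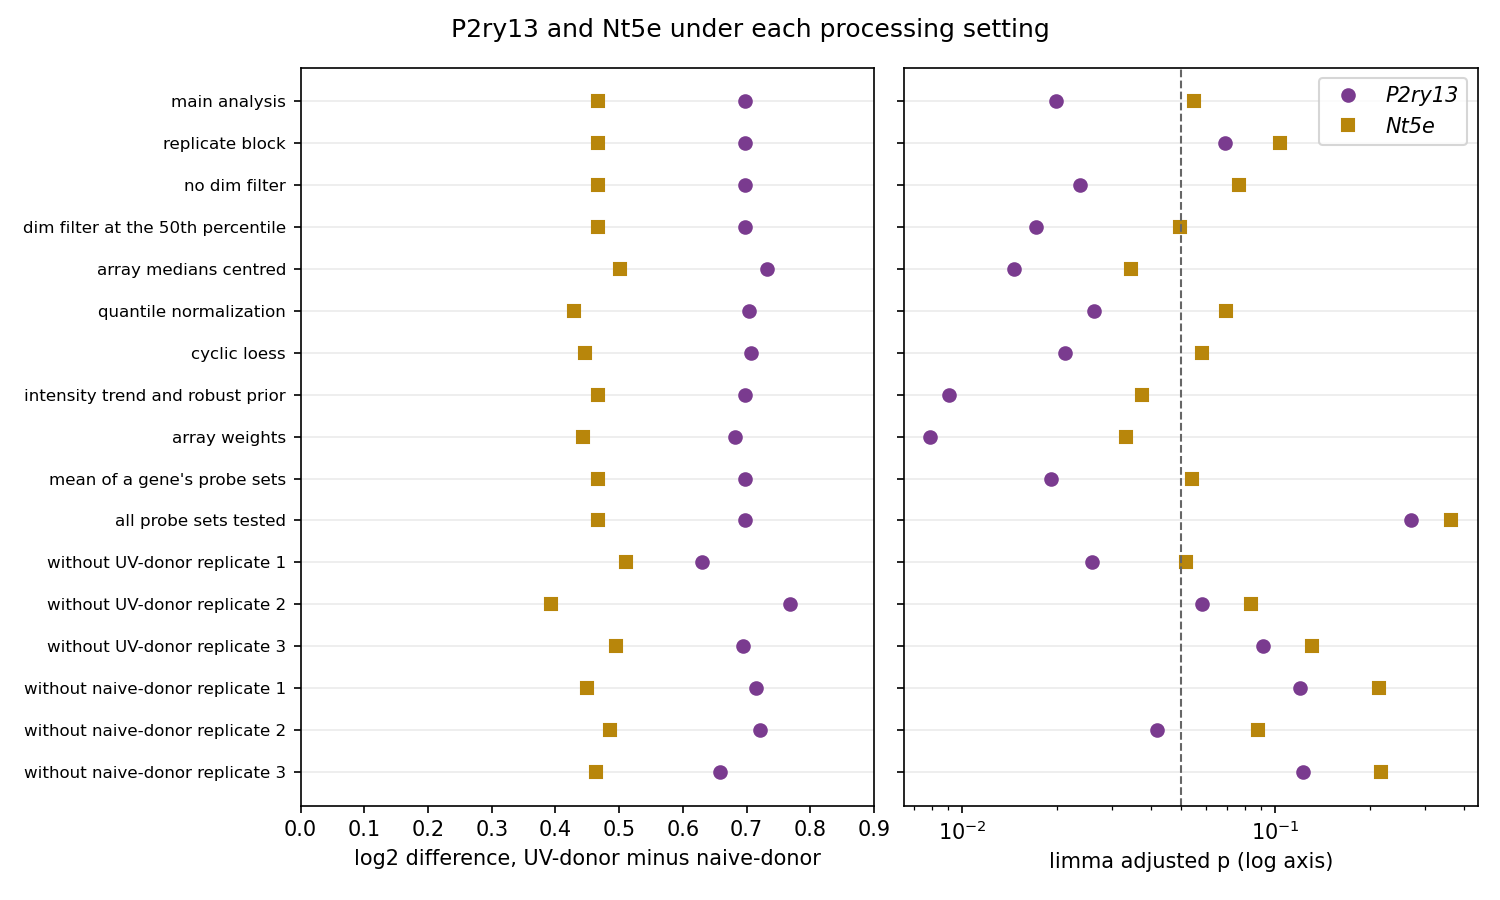
Log2 difference, UV-donor minus naive-donor (left), and limma adjusted p on a log axis (right) of P2ry13 and Nt5e under the main analysis and 16 alternative fits; the dashed line is 0.05. The P2ry13 difference stayed between 0.63 and 0.77 and passed in 10 of the 16, and the Nt5e difference stayed between 0.39 and 0.51 and passed in 4.

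By direction, 7 of the 9 measured members had a positive difference and 2 a negative one (P2ry2 and P2rx4), with a median of 0.16; over all tested genes 50.6% were positive and the median was 0.0016. Groups did not overlap for 4 members in the higher direction (P2ry13, P2ry14, P2ry6 and Nt5e), against 12.4% of all tested genes, and for 1 in the lower direction (P2rx4), against 9.37%. At an unadjusted p under 0.05, limma gave 3 members, all higher (P2ry13, P2ry6 and Nt5e), where the share over all tested genes was 9.6% in that direction. The gaps of P2ry14 and P2rx4 were under 0.02 on the log2 scale.

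Arrays of 1 group did not deviate alike for all members. In the UV-donor group, replicate 1 stood above its group mean for P2ry13 (0.14), P2rx7 (0.18), Entpd1 (0.12), P2ry12 (0.10) and P2ry6 (0.075) and below it for P2ry2 (-0.28) and Nt5e (-0.090). Replicate 2 deviated the other way for these genes, by -0.14 for P2ry13, -0.18 for P2rx7, 0.23 for P2ry2 and 0.15 for Nt5e. In the naive-donor group, replicate 3 was below its mean for P2ry12 (-0.18), P2ry14 (-0.17), Entpd1 (-0.14) and P2ry13 (-0.079). P2ry13 and Nt5e therefore shared the direction of their group difference, while their deviations inside the UV-donor group ran opposite ways.

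**Figure D3:**
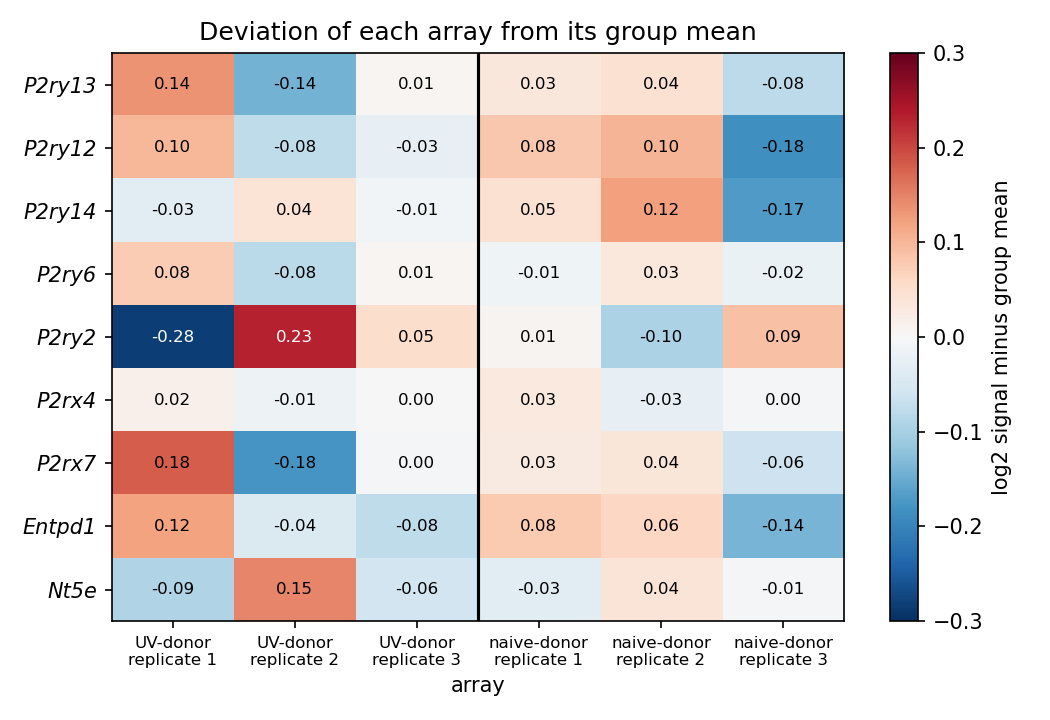
Log2 signal of each array minus the mean of its own group, for the 9 measured members (rows) on the 3 UV-donor arrays (left of the line) and the 3 naive-donor arrays. Red is above and blue below the group mean; P2ry2 and P2rx7 run opposite to each other on UV-donor replicates 1 and 2.

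The genes most like P2ry13 over the 6 arrays, by Pearson r among 13186 tested genes, were Cyp4f16 (0.994), Klhl18 (0.994), Sf3a1 (0.993), Susd4 (0.991) and Cited2 (0.991). Of these, Cyp4f16, a cytochrome P450 gene, was itself called, with a difference of 0.50 (limma adjusted p = 0.0221). These r describe 6 arrays on which the group difference was the main source of the spread of P2ry13. For deviations from the group means alone the closest genes were others (Timm17a, H1f10, Blnk, Sf3a2 and Slc4a2, r from 0.996 to 0.997), with differences between the groups from -0.027 to 0.26 and none called. Both sets of r are the highest among 13186 genes on 6 arrays, and neither was tested against chance.

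Other genes of the purinergic system were taken from lists of receptors, enzymes, transporters and partners. Of 41 tested genes beyond the members, 0 were called by limma. At an unadjusted p under 0.05, limma gave 6 with higher values and 3 with lower values, where 9.6% and 5.49% of all tested genes passed in these directions. Their median difference was 0.012. Among P2Y receptors, P2ry10, a receptor for lysophosphatidylserine named for its likeness to the family, had log2 signals of 9.97, 9.65 and 9.65 in the UV-donor group, against 9.35, 9.37 and 8.95 in the naive-donor group. Its groups did not overlap, and the difference was 0.53 (SE 0.13, limma adjusted p = 0.15). P2ry1, the Gq-coupled ADP receptor, had log2 signals of 9.89, 9.97 and 9.96 in the UV-donor group, against 10.22, 10.14 and 10.07 in the naive-donor group. Here the UV-donor group was the lower one, by 0.20 on the log2 scale, with no overlap (95% interval of the difference -0.33 to -0.077, limma adjusted p = 0.168). The 3 measured ADP receptors thus had differences of 0.70 (P2ry13), 0.17 (P2ry12) and -0.20 (P2ry1), of which the first was called.

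Among the P2X channels beyond the members, P2rx5 had log2 signals of 10.39, 10.25 and 10.30 in the UV-donor group, against 10.02, 9.98 and 10.05 in the naive-donor group. Its groups did not overlap, and the difference of 0.30 (SE 0.053, 95% interval 0.18 to 0.42) had a limma adjusted p of 0.0923. P2rx1, the fast-desensitising channel of platelets, differed by 0.18 (limma adjusted p = 0.264), and of the 6 tested P2X genes 0 were called, with 3 positive and 3 negative differences.

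**Figure D4:**
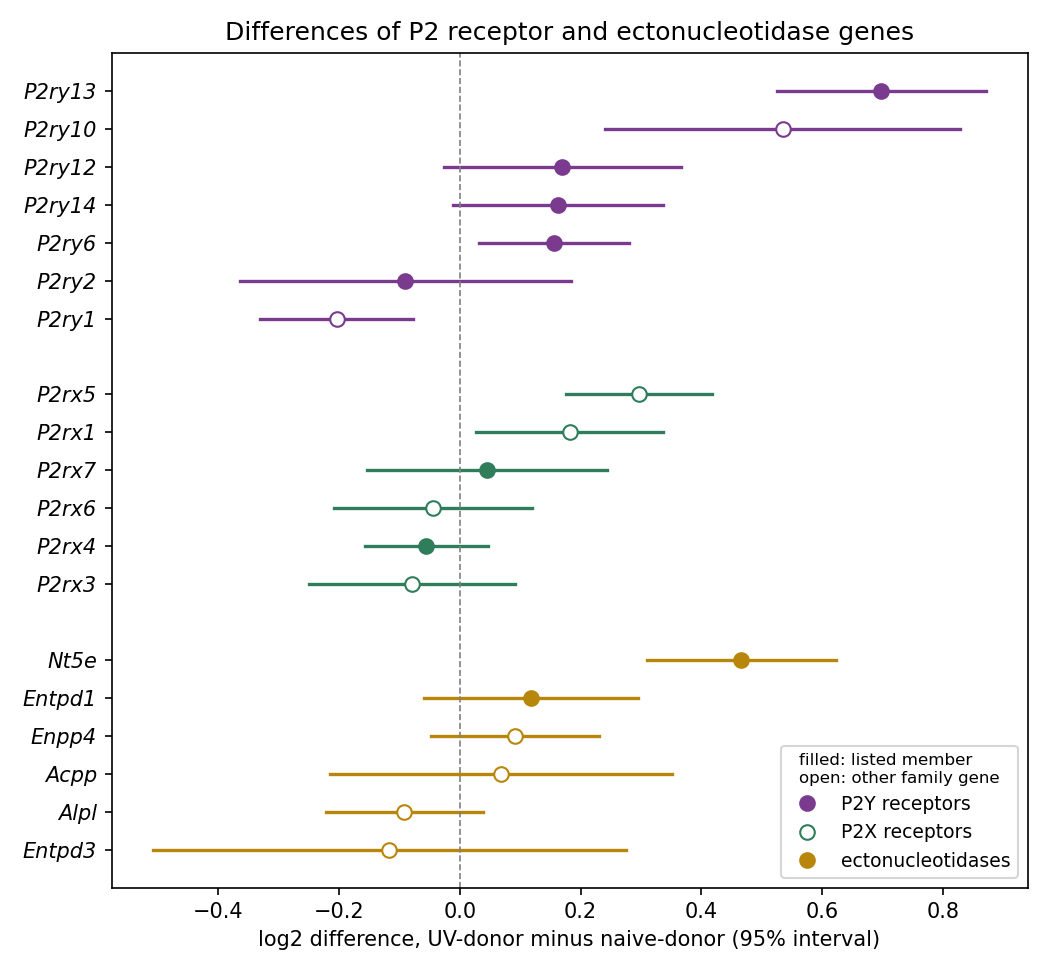
Log2 difference, UV-donor minus naive-donor, with its 95% interval (limma) for the tested P2Y receptors, P2X receptors and ectonucleotidases; filled points are the listed members and open points the other family genes. P2ry13 (0.70) lies farthest to the right, P2ry1 (-0.20) farthest left among receptors, and most other intervals include 0.

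Of the 6 tested ectonucleotidases 0 were called; beside Nt5e the smallest p belonged to Alpl, tissue-nonspecific alkaline phosphatase, which differed by -0.092 (limma adjusted p = 0.473). Genes of adenosine uptake and breakdown showed 4 positive and 4 negative differences among 8 tested genes, and 0 were called. The smallest p belonged to adenosine kinase, Adk, which differed by 0.12 (limma adjusted p = 0.498), and the largest difference among the 8 was that of Dpp4, the dipeptidyl peptidase CD26, at 0.15 (limma adjusted p = 0.573). Among 6 tested genes of ATP release, 5 had negative differences and 0 were called. These included the pannexin gene Panx2 (-0.14, limma adjusted p = 0.255) and Lrrc8a, a subunit of the volume-regulated anion channel (-0.14, limma adjusted p = 0.268), while Panx1, the pannexin best known for releasing ATP, differed by -0.0043. Of 7 tested G protein genes 0 were called, the leading one being Gna11, a Gq-class subunit, at 0.10. In the list around P2X7 and the inflammasome, 6 of 7 tested genes had positive differences and 0 were called, with Il1b at 0.20 (limma adjusted p = 0.153) and Nlrp3 at 0.19 (limma adjusted p = 0.26).

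Marker lists of several cell types were measured in the same comparison. As list means of the deviation of each gene from its mean over the arrays, neutrophil markers ran from 0.11 to 0.27 on UV-donor arrays and from -0.28 to -0.11 on naive-donor arrays, with 10 of 12 tested markers positive and S100a8 and Ltf called. Platelet markers, whose cells carry P2ry12, P2ry1 and P2rx1, ran from 0.034 to 0.11 on UV-donor arrays and from -0.15 to -0.035 on naive-donor arrays, with all 4 tested markers positive and 0 called. Proliferation genes ran from 0.10 to 0.55 on UV-donor arrays and from -0.42 to -0.049 on naive-donor arrays, with 9 of 9 positive and 0 called. Macrophage markers ran from -0.046 to 0.071 on UV-donor arrays and from -0.036 to -0.021 on naive-donor arrays, with 5 of 10 positive and C1qb called. These means average opposite shifts: C1qb (0.63), Adgre1 (0.51) and C1qc (0.46) were higher, and Cd5l was lower (-0.996, limma adjusted p = 0.0627). Microglia markers, from cells known for P2ry12 and P2ry13, ran from -0.038 to 0.0050 on UV-donor arrays and from 0.0046 to 0.019 on naive-donor arrays, with 2 of 5 positive. Dendritic cell markers ran from 0.057 to 0.16 on UV-donor arrays and from -0.13 to -0.052 on naive-donor arrays, with 9 of 10 tested markers positive and Cd209a called. Progenitor markers ran from 0.10 to 0.21 on UV-donor arrays and from -0.28 to -0.069 on naive-donor arrays, with all 4 tested markers positive and 0 called. Eosinophil markers ran from 0.15 to 0.37 on UV-donor arrays and from -0.35 to -0.061 on naive-donor arrays, with both tested markers positive (Prg2 0.75, Siglecf 0.19) and 0 called. Of 5 eosinophil markers with a probe set only these 2 passed the dim filter, and the dim ones were not tested. Plasmacytoid dendritic cell markers ran from 0.021 to 0.089 on UV-donor arrays and from -0.11 to 0.0067 on naive-donor arrays, with 3 of 5 positive and 0 called. Mast cell and basophil markers ran from 0.031 to 0.068 on UV-donor arrays and from -0.13 to 0.029 on naive-donor arrays, with all 3 tested markers positive and 0 called. Kit (0.19) and Gata2 (0.12) of this list also stand among the progenitor markers, and the other tested marker, Tpsb2, differed by 0.010. In the lists of monocytes, B cells, T and NK cells, and erythroid cells, the ranges of the groups overlapped and 0 markers were called. The part of these other cells in the differences of P2ry13 and Nt5e was not tested.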

How the data were processed

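The authors deposited 1 log2 signal per probe set for each of 6 arrays; RMA, oligo and limma are named, without versions, per the submitters' processing notes, and the log2 scale was read from the range of the values (2.52 to 14.6). No scan date is given, and no batch could be tested. Values were used as deposited. Probe sets were named by the platform annotation, checked by identifier against RefSeq (GRCm38.p6): of 35556, 21789 had 1 symbol, 1621 several and 12146 were not listed. The probe set with the highest mean stood for a gene, and genes below the 30th percentile of means were left out, leaving 13956.

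The comparison used lmFit and eBayes of limma 3.58.1 (R 4.3.3; UV-donor minus naive-donor, two-sided, Benjamini-Hochberg over all tested genes, adjusted p under 0.05 a call). An exact permutation test of 3 against 3 arrays cannot go below 0.1. The number of arrays limits the precision. The members and lists were chosen with earlier results of these data known. Named are all members, the called genes or up to 3 genes of smallest p of each pathway list, the 5 genes most like P2ry13, and defining markers; Panx1 was named after its value was seen. The fit was tested on simulated data with the means and variances of these 13956 genes, 200 of them changed, in 10 draws. It recovered 62.5% of genes changed by 0.3 and 98.6% of those changed by 0.6 on the log2 scale. Of its calls, 6.35% were false. In the measured data some larger differences were not called, such as that of the neutrophil gene Ngp (1.03, limma adjusted p = 0.0551). Ly6g (0.88, limma adjusted p = 0.152), Cd34 (0.76, 0.12) and Prg2 (0.75, 0.105) were not called either. S100a8 (0.77) and P2ry13 (0.70) were called. The simulated shares therefore do not show that an uncalled gene changed by less than 0.6. Same-numbered arrays of the groups did not deviate together (r = -0.13, -0.22 and 0.15). Alternatives were the replicate block, other dim filters, normalizations, priors, weights, probe set rules, thresholds and leaving out each array. Figures used matplotlib 3.10.9.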

Additional observations from a re-analysis of the deposited data

How the results depend on the processing

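Each measured member kept the sign of its difference under all alternative fits run, except P2ry2 (0.052) and P2rx7 (-0.045) without UV-donor replicate 1; with single arrays left out these ran from -0.21 to 0.052 and from -0.045 to 0.13. Same-numbered arrays did not deviate together, but the labels do not state whether the replicate numbers pair the arrays. The limma fit with the replicate block called 0 genes and 0 members (P2ry13 adjusted p = 0.069). With all probe sets tested, 0 and 0 were also called. Of all tested genes 24 were called, and 43 with centred medians, 43 with array weights, 45 with an intensity trend and robust prior, 70 at an adjusted p under 0.10 and 2106 at an unadjusted p under 0.05. The members called numbered 1, and 2 with centred medians, array weights, the trend and robust prior, the 50th percentile filter or an adjusted p under 0.10 (P2ry13 and Nt5e each time), and 3 at an unadjusted p under 0.05. Without single arrays, 1 to 32 genes and 0 to 1 members were called. The cause of these changes was not tested. P2ry12 was not tested under the 50th percentile filter. Centred medians put the median over tested genes at 0.036, against 0.0016 as deposited.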
